A study of Mus musculus with 109 samples.

Results

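The cytoplasmic ribosomal protein genes were taken as the rows of the count table whose symbols are Rpl or Rps followed by a number, together with Rplp0, Rplp1, Rplp2 and Rpsa. The rule found 84 of the 15973 listed genes, 48 named for the large and 36 for the small subunit. They were measured by Smart-seq in 109 single cells of a granule precursor preparation from mouse cerebella at P7 (postnatal day 7), purified on a Percoll density gradient and captured on C1 Fluidigm chips. The labels give the strain of all cells as C57BL/6, while the study's methods name ICR pups. No treatment or genotype is given in the labels. The sample labels divide them into 6 library groups of 18 or 19 cells, and neither the labels nor the methods name the animals.

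Ribosomes consist of a small subunit, which decodes the messenger RNA, and a large subunit, which forms the peptide bonds. Each subunit is built from ribosomal RNA and a set of proteins made in nearly equal amounts. Most of these proteins are encoded by a single expressed gene with many processed pseudogenes, copies of the mRNA inserted elsewhere in the genome. The messages often begin with a C followed by a run of pyrimidines, the 5′ terminal oligopyrimidine tract, through which mTORC1 signaling regulates their translation. Granule cell progenitors (GCPs) divide in the outer external granule layer, where they express Mki67, and differentiating granule cells (GCs) express the microtubule-associated protein Dcx.

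The 30 bases around annotated gene starts (RefSeq, GRCm38.p6, 20 bases before and 10 after the start) are shown for members whose values are described below. A run was defined as at least 5 bases that start with C, continue with C or T and begin within 10 bases of the annotated start. Capitals mark the first run only, as far as it lies in the window. A later run is in small letters, as in Rps18, where a longer one spans the annotated start. The first 5 windows contain a run by this definition and the last 4 do not.
Rps9, chr7:3704021-3704050, plus strand: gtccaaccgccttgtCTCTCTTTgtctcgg
Rps18, chr17:33955656-33955685, minus strand: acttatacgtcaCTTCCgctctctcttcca
Rpl15, chr14:18270977-18271006, minus strand: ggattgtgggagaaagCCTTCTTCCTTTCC
Rps6, chr4:86857358-86857387, minus strand: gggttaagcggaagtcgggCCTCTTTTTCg
Rpl28, chr7:4792945-4792974, plus strand: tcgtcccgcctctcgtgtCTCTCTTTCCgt
Rpl4, chr9:64173367-64173396, plus strand: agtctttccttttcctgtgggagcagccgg
Rps3, chr7:99483700-99483729, minus strand: gaacacttgcaagggtcgccgcgctgcgcg
Rplp0, chr5:115559447-115559476, plus strand: acgtcgtcttcgggtttcgaggaccgcctg
Rps4x, chrX:102189382-102189411, minus strand: aaagtctgaggctgggcggagcaacccagg
Of the 60 members with a listed promoter, 36 (60%) had a run, against 3544 of 9583 other genes of the table (36.98%). A run beginning at the annotated start itself was present in 13 members (21.67%) and in 284 other genes (2.964%). The search was made on the sense strand only. A window without a match says only that no such run begins within 10 bases of the annotated start. In Rpl4 a pyrimidine run that starts with C begins further upstream in the window. The 36 members with a run had a median level of 8.45 CPM (a gene's counts scaled to a fixed cell total of 1e6) and the 24 without one 12.9 CPM, both as the median over members of the median over cells.

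Total counts ranged from 15071 to 8616017 per cell, and 1 cell of library group 2 held the lowest total. Of 9 markers of the granule cell lineage, 8 had a median above 0, and their summed level had a median of 7148 CPM over cells. Gabra6, which marks mature GCs, was not among the genes listed, so its level was not analysed here. Of the 8 astroglial markers, at least 5 reached 50 CPM in 3 Mki67-high cells and 1 Mki67-low cell, classes that are defined below. No cells had identical counts.

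Ribosomal protein genes took a small and variable part of each library. Their share of a cell's counts had a mean of 0.689% ± 0.385 (SD, n = 109 cells) and a median of 0.592%. The lowest cell, of library group 5, had 0.136% (Wilson 95% interval 0.132% to 0.140%), and the highest, of library group 3, had 2.01% (1.99% to 2.02%). Libraries carry no molecular identifiers, so such intervals cover counting error only. Many members share sequence with other genes, as described below, so these shares of counts need not equal the part of the members in the mRNA. Large subunit members took 0.373% ± 0.222 and small subunit members 0.316% ± 0.189 of a cell's counts. These shares varied together over cells, with a Spearman correlation of 0.71 across 109 cells that also share library and depth. Rows named as ribosomal protein pseudogenes, 167 in number, were not counted as members.

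The levels of single members ranged widely. Rpl4 (chr9:64173375-64178666) had the highest median, 515 CPM, with quartiles of 83.3 and 1440 CPM and a range from 0.720 to 5391 CPM. Rps3 (chr7:99477896-99483738), a protein at the mRNA entry of the small subunit, had a median of 506 CPM. Rps14, Rps9 and Rpl8 had medians of 279, 208 and 189 CPM. The quartile ranges of Rpl4 and Rps3 overlapped widely. Per kilobase of mRNA the order was different, since Rps14 was above Rpl4, with medians of 468 and 335 CPM per kilobase, and Rps9 and Rpl32 had 276 and 267 CPM per kilobase. The 5 members with the highest mean CPM held 43.7% of the summed mean CPM of all members.

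Many members were close to undetected. A median of 0 CPM was found for 20 members, which therefore cannot be ordered at the low end, and 32 had a median under 1 CPM. Among them were Rps6, the phosphorylated target of S6 kinase, with counts in 39 of 109 cells, and Rps27 with counts in 17 cells. Rpl27, 1 of the internal controls of the quantitative RT-PCR in this study, had counts in 43 cells and was looked up after its values were seen. By contrast, Rpl4, Rpl8, Rps3 and Rpl41 had counts in all 109 cells, and 22 members had counts in at least 100. Rps3a2, Rps3a3 and Rps12l1, which the rule includes by symbol, are annotated as processed pseudogenes and had counts in 36, 34 and 4 cells. Rps12l2 had counts in 3 cells and no match in the GENCODE annotation.

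Levels of members moved with how much of their mRNA sequence occurs elsewhere. For each of the 83 members with a GENCODE gene model, the share of 50-base words of the reference mRNA that also occur in a transcript of another annotated gene was computed. The median share was 53.3% for members and 0% for 11749 other protein-coding genes of the table. At least 40% of the words were shared in 57 members (68.7%) and in 416 of the other genes (3.54%). The 26 members below 40% had a median level of 27.4 CPM, the 39 members from 40% to 80% had 6.57 CPM, and the 18 members from 80% on had 0 CPM. Rps3 shared 2.96% of its words, Rpl8 7.86% and Rpl4 16.5%, whereas Rps6 shared 84.6% and Rps27 98.6%. Across the 83 members, the Spearman correlation of the shared part with the median level was -0.55, as a description, and that of mRNA length with the level was 0.17. Reads from shared words can be left uncounted or placed on a copy, and how the counting treated them is not given in the sources used here. The part of read placement in the level of any one member was not tested.

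**Figure D1:**
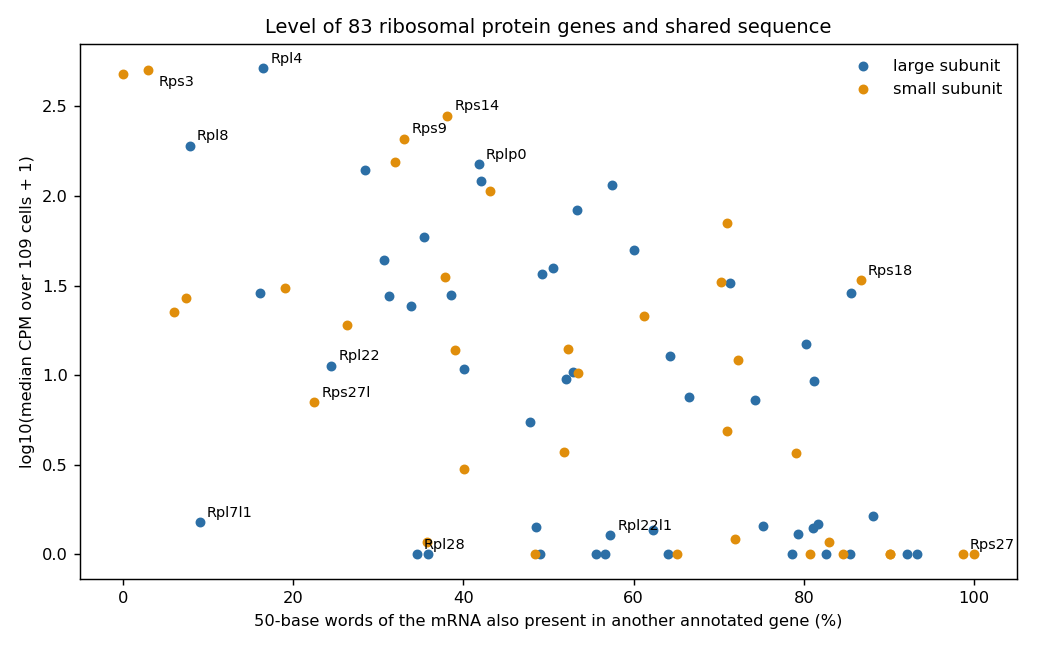
Level of 83 ribosomal protein genes, as log10 of the median CPM over 109 cells plus 1, against the percentage of 50-base words of their mRNA that occur in another annotated gene. Each point is a gene, coloured by subunit; Rps3, Rpl4 and Rpl8 lie at upper left, and Rps27, with 98.6% shared words, lies at 0. Rpl7l1, at lower left, shares 9.03% of its words and has a median of 0.518 CPM.

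Rpl7l1, Rpl22l1 and Rps27l are paralogs, second genes for proteins resembling Rpl7, Rpl22 and Rps27. Rpl7 had a median of 82.7 CPM and counts in 103 cells, and Rpl7l1, with few shared words, had 0.518 CPM and counts in 76 cells. Single cells reached 2176 CPM of Rpl7l1. For Rpl22 and Rpl22l1 the medians were 10.3 and 0.279 CPM, with counts in 81 and 58 cells. Rps27l, which shared 22.4% of its words, had a median of 6.06 CPM and counts in 73 cells, while Rps27 had 0 CPM. The Rps27 pair was thus in the opposite order from the others, and Rps27 shared 98.6% of its words.

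Expression of a member differed strongly from cell to cell. Among the 39 members with a median of at least 10 CPM, the coefficient of variation over cells ran from 86.9% for Rps14 to 220% for Rpl23, with a median of 117%. For 718 other genes at this level the median was 169%. Rps19 (90.9%) and Rpl32 (96.5%) were also among the 5 lowest. The highest after Rpl23 were those of Rpl6 (198%), Rpl22 (197%), Rps20 (190%) and Rps15 (162%). In Rps14 the quartiles lay between 141 and 476 CPM, in Rpl22 between 0 and 75.1 CPM. Low members depended on few cells, and 71.7% of the summed CPM of Rpl21 came from 1 Mki67-low cell of library group 3.

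Members tended to be high in the same cells. Across 109 cells, the 741 pairs of the 39 members had a median Spearman correlation of 0.26, from -0.09 to 0.51, and 99.6% of pairs were above 0. Pairs of the 718 other genes had a median of 0.03, with 62% above 0. After each gene was centred within library groups, the medians were 0.24 and 0.04. These are descriptions, since all pairs share the same cells, depth and total. The highest pair was Rpl32 with Rpl13a (0.51), and the lowest was Rpl32 with Rpl23 (-0.09).

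**Figure D2:**
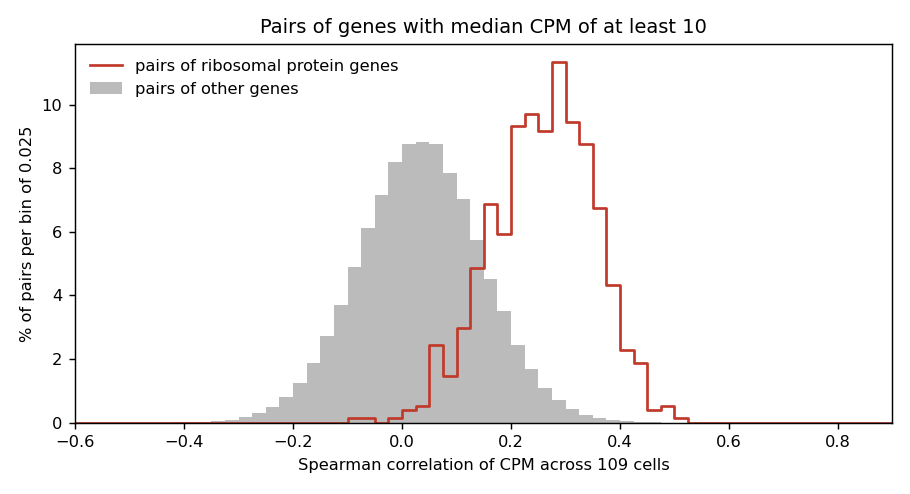
Distribution of Spearman correlations of CPM across 109 cells for pairs of ribosomal protein genes (red line, 741 pairs) and pairs of other genes (grey bars, 257403 pairs) with a median of at least 10 CPM. The red distribution is centred at 0.26 and the grey one at 0.03.

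Library groups differed in the level of the whole set. The share of summed counts was 0.794%, 0.879%, 0.873%, 0.394%, 0.525% and 0.783% in library groups 1 to 6. Groups 4 and 5 were thus the lowest, and Rps14 followed with 133 and 232 CPM there against 381 to 493.4 CPM in the others. Of the 39 members, 28 (71.8%) had their lowest level in library group 4 and 9 (23.1%) in library group 5. Among the 718 other genes these parts were 20.5% and 17.1%. Median totals per cell were 4290792 and 3972686 counts in library groups 4 and 5 and between 2442200 and 4049048 in the others. Differences in share and counts of directions were therefore read within library groups, while the fits for single genes carried no term for library group unless stated.

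Cells were separated by Mki67, a marker of cycling. Those with Mki67 at 100 CPM or more (Mki67-high, 32 cells) were compared with those under 10 CPM (Mki67-low, 75 cells). The other 2 cells fell between these limits. Listed proliferation genes had a median summed level of 4719 CPM in Mki67-high and 28.9 CPM in Mki67-low cells. They reached 6971 CPM among Mki67-low cells, so this class was not free of cells with such genes. Ribosomal protein genes took a larger part of the counts in Mki67-high cells in each library group. No single member passed the test. The share of the summed counts ran from 0.537% through a median of 0.935% to 1.06% over the 6 sums of Mki67-high cells, and from 0.362% through 0.720% to 0.782% over those of Mki67-low cells. The ranges overlap because library groups 4 and 5 were low in both classes. Within library groups the difference was 0.209 ± 0.066 percentage points (SD, n = 6 library groups) and positive in 6 of 6, with ratios from 1.21 to 1.49. Over single cells the median share was 0.847% in Mki67-high and 0.524% in Mki67-low cells. No p-value is given for this sum over members.

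**Figure D3:**
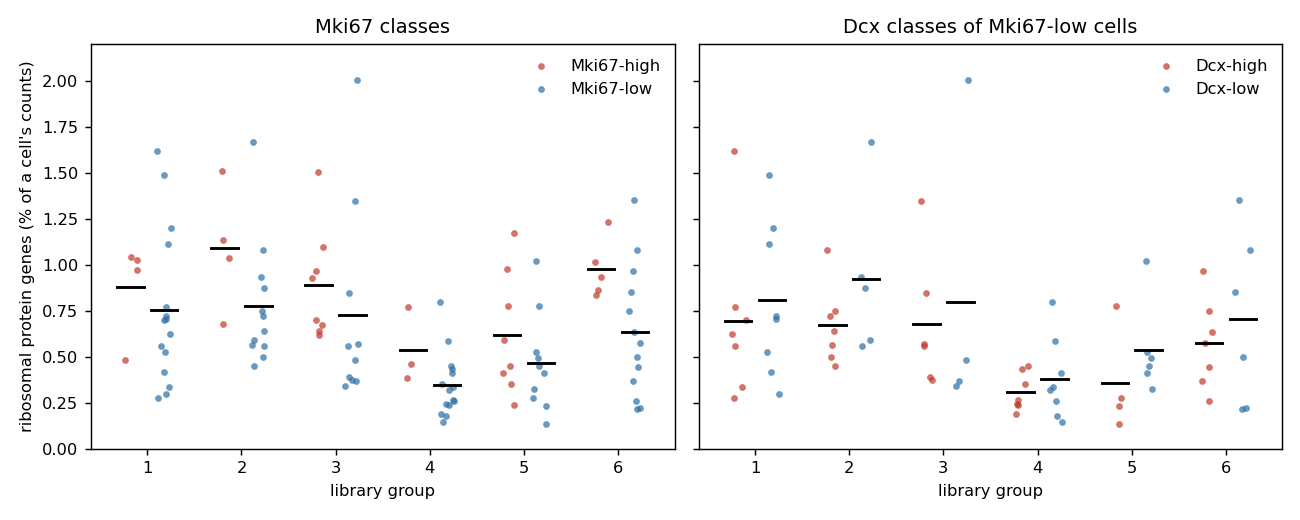
Share of each cell's counts on the 84 ribosomal protein genes, by library group (1 to 6), for Mki67-high and Mki67-low cells (left) and for Dcx-high and Dcx-low cells among the latter (right). Red points are cells of the high and blue points cells of the low class, and black bars are their means. The mean of the red points lies above that of the blue ones in all 6 groups on the left and below it in all 6 on the right, with wide overlap of cells and 1 Dcx-low cell of library group 3 at 2.01%.

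Both subunits shared this direction. Large subunit members took 0.455% ± 0.107 of the counts of Mki67-high cells and 0.339% ± 0.090 of Mki67-low cells (mean ± SD of 6 sums), and small subunit members took 0.390% ± 0.112 and 0.296% ± 0.099. Each was higher in 6 of 6 library groups. The 45 members with a median under 10 CPM took 0.105% and 0.082% and were higher in 3 of 6 library groups. Mki67-high cells also had more genes detected, with medians of 4968 and 4193 over cells. Their mean of 5426 ± 2130, against 4308 ± 640, fell to 4914 ± 702 without the 2 Mki67-high cells classed as of unusual depth. Those 2 cells were set apart by 13533 and 12684 detected genes, not by their totals of 6902230 and 7900211 counts. Both were also among the 3 Mki67-high cells carrying astroglial genes. With each cell thinned to 1110182 counts, which left out no cell of these classes, 61.0 ± 8.99 of 84 members were detected in Mki67-high and 49.7 ± 9.76 in Mki67-low cells, while all detected genes numbered 4323 ± 2071 and 3241 ± 489. Without those 2 cells, the Mki67-high values were 59.7 ± 7.73 members and 3824 ± 671 genes. Unthinned, 66.1 ± 7.74 and 55.8 ± 9.48 members were detected. The part of the number of detected genes in the difference was not tested. Among markers of other cells, GABAergic and Purkinje neuron genes reached 113 CPM in Mki67-high and 9734 CPM in Mki67-low cells (medians 0 and 0.274 CPM), and both tested, Gad1 and Pax2, were lower in Mki67-high cells in 6 of 6 library groups without being called. Summed oligodendrocyte lineage markers had medians of 58.9 CPM in Mki67-high and 6.31 CPM in Mki67-low cells and reached 14031 and 7140 CPM. No fit left out cells for these markers, and their part was not tested. Summed astroglial markers had medians of 25.4 and 6.89 CPM and reached 23174 and 40651 CPM. Their part was not tested, apart from the fits without the cells carrying astroglial genes, where the difference was 0.174 percentage points.

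For single genes, the cells of each class were pooled by library group, and the summed counts (9376998 to 33947027 counts for Mki67-high cells, 29381837 to 66286508 for Mki67-low cells) were compared with edgeR's quasi-likelihood test at a Benjamini-Hochberg adjusted p-value under 0.01. As no animal is named, p-values measure only the spread between library groups, which may be technical. Of 9084 genes tested, 2 were called (0.022%), and of the 80 members that passed the filter on low counts, none was called. The lowest adjusted p-value of a member was 0.725, and no member had an unadjusted p-value under 0.05, against 666 of all genes. DESeq2 called 376 genes and no member, with 11 members higher and 1 lower at an unadjusted p-value under 0.05. The common biological coefficient of variation between sums was 172%, so the errors of single members were large. Their median log2 fold change was 0.36, against -0.18 for all genes tested, and 57 of 80 were above 0. The 39 members with a median of at least 10 CPM over cells had 0.40, with 34 above 0. The 28 tested members with a median under 1 CPM had -0.16, with 12 above 0 and 16 below. All comparisons of medians are relative to the genes tested, because the median of all genes lay between -0.47 and 0.43 under other scalings and fits, and in each of them the members lay above it.

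**Figure D4:**
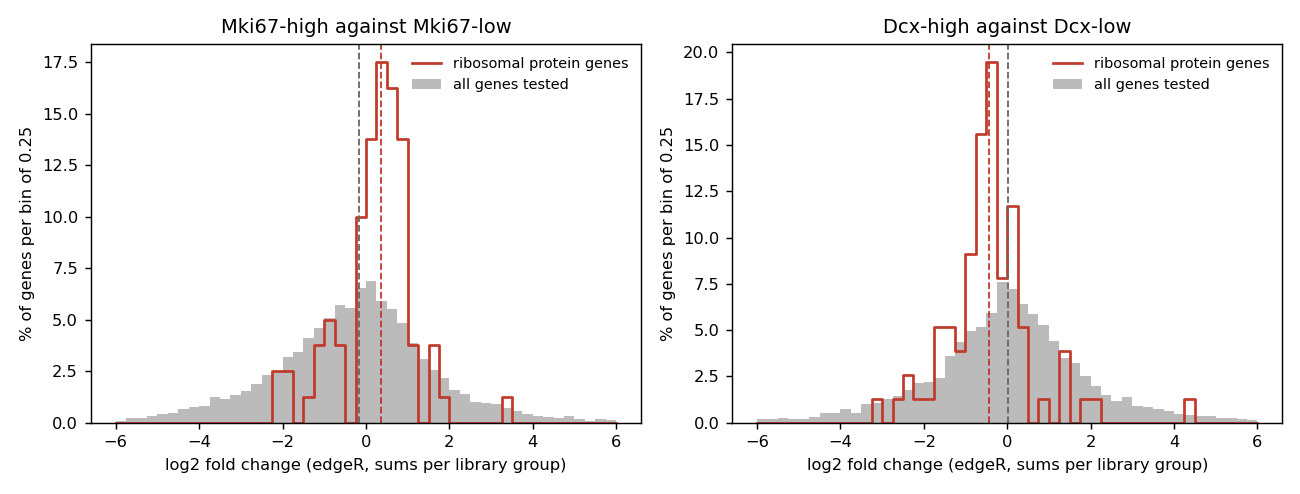
Distribution of log2 fold changes from edgeR for all genes tested (grey bars) and for ribosomal protein genes (red line), in percent of genes per bin of 0.25; dashed lines are medians. In the Mki67 comparison (left) the medians are 0.36 for members and -0.18 for all genes, and in the Dcx comparison (right) -0.44 and 0.02. Genes beyond 6 on either side are not drawn.

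Directions over library groups gave a count for each member. Higher values in Mki67-high cells in at least 5 of 6 library groups were found for 29 of 80 members (36.2%), against 10.6% of all genes tested. In the other direction there were 3 members (3.75%), against 15.3% of all genes. Without the cells of unusual depth the 29 became 27, and without the cells carrying astroglial genes 25. These sets have 2 Mki67-high cells in common. The members move together from cell to cell, so they are not independent observations. Higher in 6 of 6 were 5 members (6.25%), against 2.19% of all genes, and lower in 6 of 6 were 0, against 3.2%. With limma on means of log2(CPM + 1), 19 members (23.8%) were higher at an unadjusted p-value under 0.05 and 0 were lower, against 14.4% and 1.12% of all genes, and none was called (lowest adjusted p = 0.0619, Rps3).

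Rplp0, Rps18 and Rps4x were among the members higher in 6 of 6 library groups and were named after their values were seen. Rps4x (chrX:102184941-102189394), the X-linked form of a small subunit protein, was the only member tested whose sums did not overlap between classes, with 47.0 to 80.9 CPM in Mki67-high sums (median 66.3) and 22.3 to 43.2 CPM in Mki67-low sums (median 36.1). Such separation was found in 0.627% of all genes tested. Its log2 fold change was 0.87 (SE 1.04, adjusted p = 0.886). Rplp0 (chr5:115559467-115563727), the base of the ribosomal stalk that recruits elongation factors, had 187, 335 and 597 CPM (lowest, median and highest) in Mki67-high and 153, 242 and 327 CPM in Mki67-low sums. Rps18, with 86.7% shared words, had 41.2, 66.8 and 81.5 CPM against 25.5, 38.7 and 59.8 CPM. In both genes the ranges of the classes overlapped, and the higher class was the same in each library group.

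By the smallest p-values, which were all above 0.05, the 5 higher members were Rpl8, Rps12, Rps6, Rpl22l1 and Rpl23a. Rpl8 (chr15:76904078-76906314), which lies near the peptidyl transferase center, had 254, 471 and 1183 CPM in Mki67-high sums and 62.9, 220 and 518 CPM in Mki67-low sums, and was higher in 5 of 6 library groups. Its log2 fold change was 1.10 (SE 0.62, adjusted p = 0.725). Leaving out each library group and all other settings kept it between 0.80 and 1.55. Rpl22l1 had 0.427, 35.6 and 72.1 CPM against 2.02, 10.5 and 19.4 CPM, also higher in 5 of 6, with a log2 fold change of 1.68 (SE 1.35). Rps12, Rps6 and Rpl23a were low, with Mki67-high medians of 1.35, 3.66 and 1.08 CPM, and a count of 0 allows up to 0.320 CPM in the smallest sum. Rps12 had a log2 fold change of 3.27 (SE 1.94), with its highest sum, 47.4 CPM, in library group 6. Leaving out each library group kept it between 2.38 and 3.996, and it was 1.70 with library group as a term and 0.66 with limma on cell means.

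Rpl15, Rpl17, Rpl12 and Rpl21 were among the 5 lower members with the smallest p-values. Rpl15 had 0.899, 17.7 and 105 CPM in Mki67-high sums and 12.2, 98.5 and 203 CPM in Mki67-low sums, with a log2 fold change of -2.21 (SE 1.27, adjusted p = 0.725). The ranges overlapped, and 2 of 6 library groups had the opposite order. In limma on cell means the sign turned to 0.28. Rpl17 had a log2 fold change of -1.21 (SE 0.98), with a Mki67-high median of 1.79 CPM. Rpl12 and Rpl21 had -1.80 (SE 1.67) and -1.91 (SE 1.997), and both turned above 0 without library group 3, at 0.20 and 0.29. These 4 genes share between 49.0% and 78.7% of their words with other genes.

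Rps3 and Rpl4, the members with the highest medians, showed small differences, and their errors, though small for members, were larger than the differences. Rps3 had 553, 675 and 1184 CPM in Mki67-high sums and 411, 582 and 733 CPM in Mki67-low sums, a log2 fold change of 0.33 (SE 0.45). Rpl4 had 187, 968 and 1988 CPM against 487, 903 and 1721 CPM, a log2 fold change of -0.08 (SE 0.48). The classes overlapped in both. Rpl4 was low in the Mki67-high cells of library group 1, at 187 CPM against 882 CPM.

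Among the paralogs, Rps27l, a p53-inducible gene, had 31.2, 119 and 154 CPM in Mki67-high sums and 26.9, 50.1 and 88.9 CPM in Mki67-low sums, a log2 fold change of 0.91 (SE 0.94). It was higher in 5 of 6 library groups, and Rps27, at 5.75 CPM or less in every sum, had -0.92 (SE 1.66). Rpl7l1 had 0.99 (SE 1.30), which turned to -0.29 without library group 5, where 1 Mki67-high cell reached 2176 CPM, and Rpl7 had 0.22 (SE 0.79). Rpl22 had 0.98 (SE 1.05).

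Dcx levels were examined among the 75 Mki67-low cells, so that Mki67-high cells did not enter the split. These cells were split at their median of 1781 CPM into 38 Dcx-high and 37 Dcx-low cells. They are the Mki67-low cells of the first comparison. Ribosomal protein genes took a smaller part of the summed counts of Dcx-high cells, but the size of the difference depended on 1 cell. The share was 0.304%, 0.617% and 0.689% (lowest, median and highest of 6 sums) in Dcx-high cells and 0.402%, 0.809% and 1.09% in Dcx-low cells, and the classes overlapped. The difference was -0.217 ± 0.111 percentage points (SD, n = 6), below 0 in 6 of 6 library groups. Without the Dcx-low cell of library group 3 at 2.01%, whose Dcx level was 21.1 CPM, it was -0.100 ± 0.187 and below 0 in 5 of 6. Between the upper and the lower tertile of Dcx it was -0.319 ± 0.391, also below 0 in 5 of 6. Over single cells the medians were 0.528% in Dcx-high and 0.524% in Dcx-low cells. Across the 75 cells, the Spearman correlation of the share with the Dcx level was -0.14, and across all 109 cells -0.21.

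The subunits were again alike. Large subunit members took 0.283% ± 0.078 of the counts of Dcx-high and 0.411% ± 0.132 of Dcx-low cells, and small subunit members 0.256% ± 0.101 and 0.345% ± 0.126. At 1110182 counts per cell, 48.6 ± 7.07 members were detected in Dcx-high and 50.8 ± 11.9 in Dcx-low cells (unthinned, 54.5 ± 7.05 and 57.1 ± 11.4). Summed astroglial markers reached 1058 CPM in Dcx-high and 40651 CPM in Dcx-low cells, in which 1 cell carried such genes. Without it the difference in share was -0.232 percentage points. Listed proliferation genes had a median summed level of 12.7 CPM (0 to 4296) in Dcx-high and 43.0 CPM (0.964 to 6971) in Dcx-low cells. Of 5 such genes tested, 4 had log2 fold changes below 0, with a median of -2.69, and none was called. Markers of GABAergic and Purkinje neurons, of which 7 of 8 were listed, reached 9734 CPM in Dcx-high and 1047 CPM in Dcx-low cells, with medians of 0.432 and 0.141 CPM. Gad1 and Pax2, the 2 tested, had log2 fold changes of 5.28 (SE 2.01) and 2.54 (SE 2.22). Summed oligodendrocyte lineage markers had medians of 4.28 CPM in Dcx-high and 20.1 CPM in Dcx-low cells and reached 5308 and 7140 CPM. The part of these genes in the difference in share was not tested.

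In edgeR's test of the sums (16501145 to 27128056 counts for Dcx-high, 8429936 to 39158452 for Dcx-low cells), 0 of 6681 genes (0%) and 0 of 77 members were called, and 341 genes but no member had an unadjusted p-value under 0.05. DESeq2 called 419 genes and no member, with 6 members lower at an unadjusted p-value under 0.05. The median log2 fold change of members was -0.44, against 0.02 for all genes tested, and 57 of 77 were below 0. Lower values in Dcx-high cells in at least 5 of 6 library groups were found for 27 members (35.1%), against 10.7% of all genes, and higher values for 0, against 10.5%. Without the cell with the highest share the 27 became 21. In 6 of 6 library groups, 2 members (2.6%) were lower, against 1.77% of all genes, and 0 were higher, against 1.18%. With limma on cell means, 1 member (1.3%) was lower at an unadjusted p-value under 0.05, against 2.33% of all genes, and 0 were higher, against 2.44%.

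**Figure D5:**
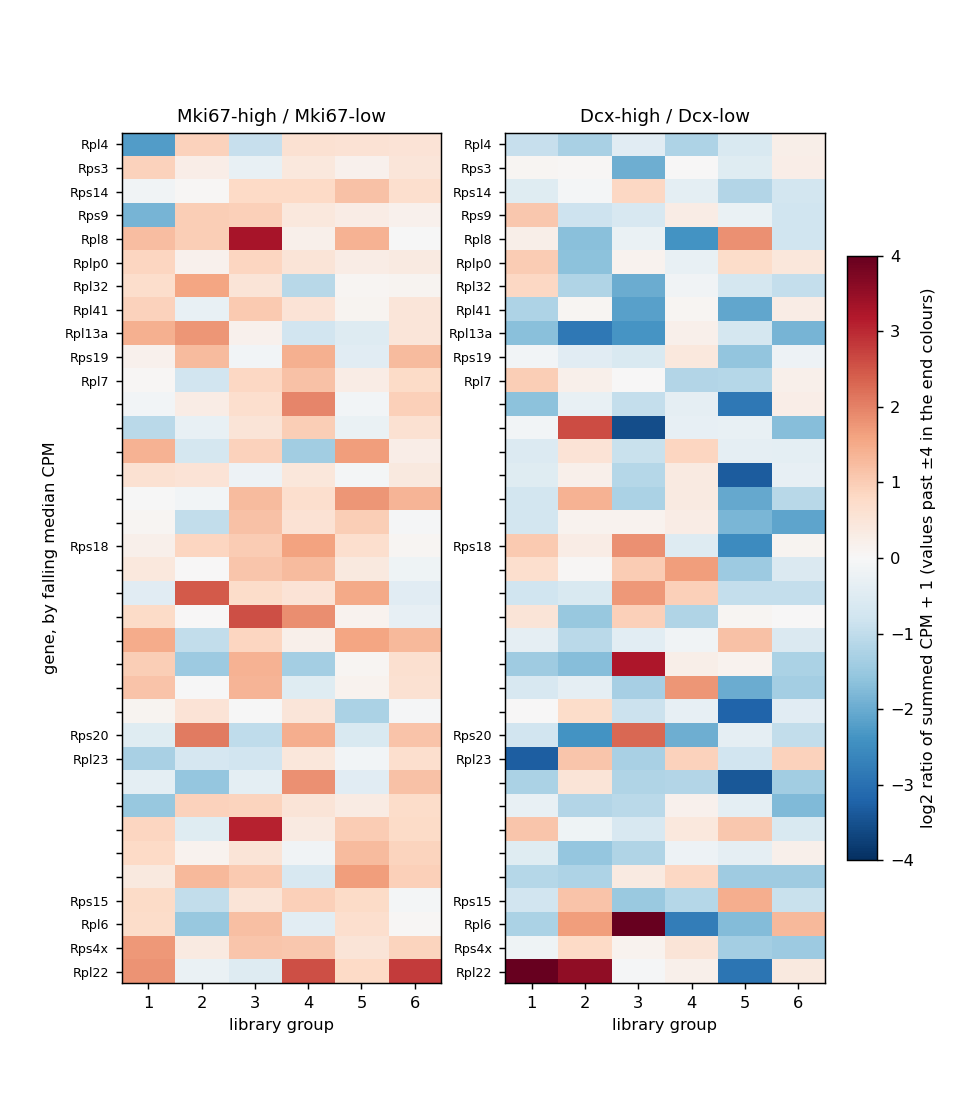
Log2 ratio of summed CPM plus 1 between classes in each library group (columns 1 to 6) for 36 of the members with a median of at least 10 CPM (rows, by falling median), for Mki67-high over Mki67-low (left) and Dcx-high over Dcx-low among Mki67-low cells (right). On the left 157 of 216 fields are above 0 and on the right 80 of 216. Genes named in the text are labelled. Single fields run from -2.23 to 3.31 on the left and from -3.55 to 4.75 on the right.

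By the smallest p-values, the 5 lower members were Rpl28, Rpl13a, Rpl30, Rpl15 and Rps29. Rpl13a (chr7:45125558-45128761) was the most abundant of them, with 36.9, 90.1 and 158 CPM in Dcx-high and 105, 264 and 525.7 CPM in Dcx-low sums, lower in 5 of 6 library groups. Its log2 fold change was -1.61 (SE 0.93, adjusted p = 0.999), and 35.4% of its exon bases overlap those of other genes, small nucleolar RNA genes among them. Rpl28 had a log2 fold change of -3.23 (SE 1.71), with medians of 0.539 and 3.60 CPM. Rpl30 had -2.49 (SE 1.502), of which the highest Dcx-low sum, 248 CPM in library group 2, was far above the median of 23.7 CPM. Rpl15 and Rps29 had -2.57 (SE 1.65) and -2.17 (SE 1.49). In each of these 5 genes the ranges overlapped.

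The 5 higher members were Rps6, Rpl21, Rpl12, Rpl9 and Rpl31, all with a median of 0 CPM over cells. Rps6 had 0.0606, 2.25 and 7.96 CPM in Dcx-high and 0.119, 0.428 and 2.31 CPM in Dcx-low sums, a log2 fold change of 2.13 (SE 1.15, adjusted p = 0.999), with 3 of 6 library groups in each direction. Rpl21 had 4.37 (SE 2.44) and turned to -1.41 without library group 3. Rpl12 had 1.77 (SE 1.83), although it was lower in 5 of 6 library groups, and Rpl9 and Rpl31 had 1.46 (SE 1.72) and 1.43 (SE 1.77). Each of these 3 turned below 0 with library group as a term. Among the paralogs, Rps27l had 0.915, 17.03 and 52.0 CPM in Dcx-high sums and 31.6, 108 and 158 CPM in Dcx-low sums, a log2 fold change of -1.92 (SE 1.41), lower in 5 of 6. Rpl7l1 and Rpl22l1 had -0.76 (SE 1.54) and -0.44 (SE 1.44), and Rpl7 and Rpl22 had 0.05 (SE 1.11) and 0.09 (SE 1.51).

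Other genes of translation were read from fixed lists, none of whose members was called in either comparison. Eef1a1, which delivers aminoacyl-tRNA to the ribosome, had 1303 ± 283 CPM in Mki67-high and 959 ± 178 CPM in Mki67-low sums (SD, n = 6), and was higher in 6 of 6 library groups. Its log2 fold change was 0.33 (SE 0.35, adjusted p = 0.865). Eef2, the translocation factor, had 663 ± 304 and 608 ± 420 CPM, a log2 fold change of 0.05 (SE 0.54). Eif5a had 552 ± 191 and 334 ± 152 CPM, a log2 fold change of 0.59 (SE 0.50). The other elongation genes tested, Eef1b2, Eef1d, Eef1g and Eef1e1, had log2 fold changes of 0.45 (SE 0.74), 0.28 (SE 1.10), -0.10 (SE 1.11) and -1.27 (SE 1.16). In the Dcx comparison Eef1a1 had -0.36 (SE 0.50), and the others lay between -2.05 (Eef1d) and 0.73 (Eef1e1). Together the 8 listed elongation genes took 0.296% and 0.229% of the counts of Mki67-high and Mki67-low cells, higher in 4 of 6 library groups with a mean ratio of 1.36, and 0.232% and 0.231% of those of Dcx-high and Dcx-low cells.

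Ribosomal proteins that the rule leaves out by name were low, and of 3 tested, 1 had a log2 fold change above 0 in the Mki67 comparison and none in the Dcx comparison. Fau and Rpl36al had counts in 74 and 59 cells and log2 fold changes of -0.44 (SE 1.26) and -0.35 (SE 1.38) in the Mki67 comparison. In the Dcx comparison they had -0.59 and -2.20, and Rpl36al was lower in 6 of 6 library groups.

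Medians of the other lists in the Mki67 comparison were 0.30 for 31 translation initiation genes, 0.16 for 42 ribosome biogenesis genes, 0.16 for 11 other genes with a 5′ oligopyrimidine tract, -0.24 for 75 mitochondrial ribosomal protein genes and -0.61 for 11 genes of mTORC1 and translation control, beside -0.18 for all genes tested and 0.36 for the members. Above 0 were 19 of 31, 21 of 42, 9 of 11, 34 of 75 and 4 of 11. In the Dcx comparison the medians were 0.31, -0.35, -0.16, -0.25 and 0.09 in the same order, beside 0.02 for all genes tested and -0.44 for the members. Dcx itself had 712 ± 583 CPM in Mki67-high and 2811 ± 873 CPM in Mki67-low sums, lower in 6 of 6, with a log2 fold change of -2.23 (SE 0.59, adjusted p = 0.372). Mki67, which defined the classes, had 1215 ± 372 and 0.956 ± 0.571 CPM.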

How the data were processed

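Single cells were lysed and amplified on C1 Fluidigm chips. Per the labels and the study's methods, the authors aligned reads to mm10 with STAR 2.4.1d, counted reads per gene with HTSeq-count 0.6.1 and deposited raw counts without normalization. Every value column of the count table was assigned to a cell. The annotation and strand setting are not given in the sources used here, so how reads in overlapping genes were assigned is not known. Each of the 15973 genes was counted in 3 cells or more. Depth ran from 15071 to 8616017 counts per cell.

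CPM were computed from column totals. Counts were summed by class and library group, filtered with filterByExpr, normalized by TMM and tested with edgeR 4.0.16 (quasi-likelihood test, Benjamini-Hochberg adjustment) in R 4.3.3; DESeq2 1.42.0 and limma 3.58.1 were alternatives. Mki67 was not tested where it defined classes, nor Dcx and Mki67 in the Dcx comparison. A count of 0 allows up to 3 counts. Gene models came from GENCODE M21 (GRCm38), of which the best principal and supported, then shortest, transcript was used. The promoter sequences came from RefSeq (GRCm38.p6). The edgeR fit was also run on simulated counts that varied less between sums than these data. That run does not show how many true changes the fit would find here.

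Members and lists were chosen with earlier results of these data known. Named were the 5 higher and 5 lower members with the smallest p-values in each comparison (none was called), the 5 highest per kilobase, the 5 lowest and 5 highest coefficients of variation, paralogs with their parents, and genes of the elongation list and of ribosomal proteins outside the rule. Some genes under this rule are not reported here. Others were named after their values were seen. The 5 lowest per kilobase were not named because more members tie at 0. Alternatives were DESeq2, no filter, a threshold of 0.05, a block for library group, each library group left out, limma on means of log2(CPM + 1), cells of unusual depth (under 100000 counts or over 10000 genes) or with astroglial genes left out, other class limits (50 CPM of Mki67, upper against lower tertile of Dcx), cell means of shares, and shares without the 100 largest other genes. Library totals, limma with a block, and fits without the cell with the highest share were added after seeing the data.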

Additional observations from a re-analysis of the deposited data

Results flagged for a closer look

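Values far from the others of their class were found in 26 of 85 sets of 4 to 7 values examined. For independent sets picked without regard to their values, chance gives about 1 in 20. Many of the genes examined were picked for their values in these data, and the Dcx sums are parts of the Mki67-low sums. The number found cannot therefore be set against that rate. For the share of counts on ribosomal protein genes, 1 Mki67-high cell of library group 1 was low at 0.483% (median of its class there 0.999%). Single cells were high at 1.62% among Dcx-high cells of library group 1 (median 0.624%), at 2.01% among Dcx-low cells of library group 3 (median 0.426%) and at 1.02% among Dcx-low cells of library group 5 (median 0.472%).

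Most of the other distant values were sums of members of low level, and many lay in library group 3. In Mki67-high sums, Rpl15 had 105 CPM and Rpl21 65.3 CPM in library group 3, Rpl23a 10.3 CPM and Rps27 5.24 CPM in library group 1, Rpl7l1 589.9 CPM in library group 5 and Rpl12 16.8 CPM in library group 6. In Mki67-low sums, Rpl12 had 54.3 CPM, Rpl21 200.3 CPM and Rpl22 189.5 CPM in library group 3, and Rpl23a had 3.32 CPM in library group 1. In Dcx-high sums, Rpl12 had 76.1 CPM, Rpl21 281 CPM, Rpl22 187.5 CPM and Rps27 8.07 CPM in library group 3, Rpl28 had 5.84 CPM and Rpl9 104 CPM in library group 1, and Rpl31 had 31.7 CPM in library group 5. In Dcx-low sums, Rpl22 had 194.5 CPM and Rpl28 45.1 CPM in library group 3, Rpl30 had 248 CPM in library group 2, Rps29 98.5 CPM in library group 5 and Rps6 2.31 CPM in library group 6.

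The 2 cells in neither Mki67 class entered no comparison. Their shares were 1.37% and 1.29%, above the median of 0.592% over all cells, and both were of library group 2. The cell at 1.29% had 15071 counts, the lowest total.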

How the results depend on the processing

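No member was called under any alternative at an adjusted p-value under 0.01. With a threshold of 0.05, limma with library group as a replicate block called 2 members in the Mki67 comparison. Leaving out each library group kept the number called at 0 and the difference in share between 0.189 and 0.219 percentage points (Mki67) and between -0.241 and -0.175 (Dcx). Without the cell with the highest share the Dcx difference was -0.100, and between tertiles of Dcx it was -0.319. Genes called at 0.01 ranged more widely, since edgeR called 2 and 0 genes, DESeq2 376 and 419, and limma 76 and 0 (114 and 0 with a replicate block). The share of genes above 0 in the Mki67 comparison was 45.2% with TMM, 54.8% with DESeq2 and 75.6% with limma. With library group as a replicate block in edgeR, 0 members were called in either comparison. The main fits did not pair sums of the same library group. Over all genes tested, such sums deviated together only weakly (correlations of 0.020 to 0.056 and of -0.006 to 0.039). The share of counts on members did follow library group, and was lowest in library groups 4 and 5 in both classes of each comparison. The errors of members in the main fits include this spread.

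Signs turned for single members, none of them called, and the cause was not tested. In the Mki67 comparison, limma with and without a block gave Rpl12 0.43, Rpl15 0.28, Rpl21 0.032 and Rps27 0.079. Leaving out library groups gave ranges of -2.70 to 0.20 (Rpl12), -2.07 to 0.29 (Rpl21) and -0.29 to 1.63 (Rpl7l1). In the Dcx comparison, the replicate block gave Rpl12 -2.05, Rpl31 -1.38, Rpl7 -0.15 and Rpl9 -0.56, and limma with and without a block gave Rpl12 -0.26, Rpl7 -0.18 and Rpl9 -0.28. The upper against the lower tertile of Dcx gave Rpl22 -1.38, Rpl22l1 0.57, Rpl7 -0.67 and Rpl9 -0.29, and DESeq2 gave Rpl7 -0.076. Leaving out library groups gave -2.004 to 2.37 (Rpl12), -1.41 to 5.05 (Rpl21), -0.13 to 0.94 (Rpl22), -0.79 to 0.29 (Rpl22l1) and -0.18 to 0.19 (Rpl7).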
